A study of Mus musculus with 8 samples.

Results

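The cells described here are CD3-positive cells of the ascending thoracic aorta that carried the RNA of mitosis. They were chosen by gates on raw UMI counts (unique molecular identifiers, which count each captured molecule once), from barcodes in every hashtag state. A cell had at least 500 genes, at least 1000 gene UMIs and under 15% mitochondrial UMIs. It also had at least 1 UMI of Cd3d, Cd3e and Cd3g summed, and at least 3 UMIs of Ccnb2, Ube2c, Cdc20 and Cenpa summed. Cells with more than 1 UMI of the endothelial genes Cdh5, Kdr and Cldn5 were left out, as were cells in which the smooth muscle genes Myh11, Tagln and Acta2 reached 1% of UMIs or the fibroblast gene Dcn reached 0.3%. The gates held 692 cells, of 26916 barcodes in all, 11301 past the quality limits and 2246 CD3-positive cells under the same exclusions. The values of the 7 genes that chose the cells are therefore descriptions, and no test is given for them.

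The tissue, the stretch of aorta next to the heart, came from 3 aged wildtype mice of 81, 84 and 88 weeks, 1 animal per age. All cells were measured in 1 pool by CITE-seq, single-cell RNA sequencing with barcoded antibodies, here hashtag antibodies that mark the animal of origin. The tissue was digested with collagenase and elastase for 60 min at 37 °C. The animals differ in age alone as far as the labels say. The 8 deposited samples are 4 gene expression and 4 hashtag libraries of the pool, and the matrix does not keep them apart. Hashtags 1, 2 and 3 mark the animals of 81, 84 and 88 weeks, per a deposited reference table.

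Thymocytes, the precursors of T cells, divide in bursts in the thymus between the steps at which they rearrange their receptor genes. Rag1 and Rag2 cut the receptor genes during rearrangement, and cells that carry both Cd4 and Cd8 make up most of the thymus. A dividing cell first copies its DNA with the MCM helicase, the clamp Pcna and other replication proteins. It then builds up mitotic cyclins and kinases, aligns its chromosomes on a spindle, and leaves mitosis when the anaphase-promoting complex marks cyclins and securin for degradation. Of the genes in the gate, Ccnb2 encodes cyclin B2, which partners the kinase Cdk1. Cdc20 activates the anaphase-promoting complex, Ube2c is a ubiquitin-conjugating enzyme that works with it, and Cenpa is the histone H3 variant that marks centromeres.

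The promoters of these 4 genes and of Aspm, a spindle pole gene that the gate did not use, are shown because they share letters that recur among the genes higher in these cells. Each window runs 5′ to 3′ on the gene's own strand from 250 bases before to 50 after the annotated start, from RefSeq, build GRCm38.p6. The positions are chr9:70421505-70421804 for Ccnb2 (minus strand), chr2:164769679-164769978 for Ube2c (plus), chr4:118437294-118437593 for Cdc20 (minus), chr5:30666636-30666935 for Cenpa (plus) and chr1:139454523-139454822 for Aspm (plus). Capitals mark TTTGAA or its complement TTCAAA, the letters of the CHR element (cell cycle genes homology region), and CCAAT or its complement ATTGG.
Ccnb2: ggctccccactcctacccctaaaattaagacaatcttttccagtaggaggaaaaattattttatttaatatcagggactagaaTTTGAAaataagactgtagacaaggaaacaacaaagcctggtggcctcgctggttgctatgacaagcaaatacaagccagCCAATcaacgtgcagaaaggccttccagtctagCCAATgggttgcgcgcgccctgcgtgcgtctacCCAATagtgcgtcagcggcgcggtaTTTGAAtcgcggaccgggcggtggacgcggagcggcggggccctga
Ube2c: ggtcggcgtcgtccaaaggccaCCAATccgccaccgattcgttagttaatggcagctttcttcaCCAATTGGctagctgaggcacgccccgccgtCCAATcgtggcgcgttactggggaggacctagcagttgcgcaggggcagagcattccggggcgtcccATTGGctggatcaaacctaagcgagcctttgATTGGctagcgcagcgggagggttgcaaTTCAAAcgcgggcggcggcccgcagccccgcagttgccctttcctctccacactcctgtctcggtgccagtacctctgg
Cdc20: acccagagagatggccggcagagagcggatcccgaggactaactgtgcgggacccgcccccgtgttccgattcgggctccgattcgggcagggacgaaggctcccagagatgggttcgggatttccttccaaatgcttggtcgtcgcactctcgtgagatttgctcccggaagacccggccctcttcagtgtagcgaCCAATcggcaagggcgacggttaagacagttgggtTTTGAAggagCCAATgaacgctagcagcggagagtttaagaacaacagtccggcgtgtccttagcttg
Cenpa: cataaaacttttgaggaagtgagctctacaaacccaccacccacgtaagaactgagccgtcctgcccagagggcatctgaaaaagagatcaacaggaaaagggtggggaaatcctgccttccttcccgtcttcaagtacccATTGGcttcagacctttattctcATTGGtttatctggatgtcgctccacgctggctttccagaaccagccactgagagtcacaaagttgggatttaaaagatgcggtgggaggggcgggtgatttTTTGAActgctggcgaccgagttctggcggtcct
Aspm: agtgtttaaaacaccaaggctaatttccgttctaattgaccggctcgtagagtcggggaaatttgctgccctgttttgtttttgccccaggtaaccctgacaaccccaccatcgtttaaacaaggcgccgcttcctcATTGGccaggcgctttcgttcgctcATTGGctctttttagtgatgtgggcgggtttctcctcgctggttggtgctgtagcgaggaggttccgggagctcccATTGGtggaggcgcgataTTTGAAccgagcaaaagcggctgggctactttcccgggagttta

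TTTGAA stood within 30 bases of the start in all 5 windows, and each window also held at least 2 CCAAT letters. In Ccnb2 the nearest TTTGAA began 4 bases after the start, in Aspm 6 and in Cenpa 16 bases after it. In Cdc20 it began 18 bases before the start and in Ube2c, on the other strand, 29 bases before it. Of the 114 genes called higher in mitotic than in DNA-replicating cells, a comparison given below, 92 had a window. The letters TTTGAA or TTCGAA, on either strand, were present for 61 of these 92 genes (66.3%). They were present for 1041 of the 5919 genes with a window (17.6%) among all genes tested. A gene with several windows counts once, if any of them holds the letters. In the same window as CCAAT they were present for 51 of the 92 genes (55.4%), against 462 of 5919 (7.81%). CCAAT, with or without them, was present for 71 (77.2%) against 2543 genes (43.0%). Of all 27025 genes with a window of this length, 21.7% held TTTGAA or TTCGAA. Ccnb1, which encodes cyclin B1, had CCAAT 2 times and no TTTGAA in its window. The called genes come from classes gated on mitotic and replication RNA, so the shares of the 92 genes describe genes that vary with the gates. A match is a run of letters and not a bound site. Windows were found for 80.7% of the called and 80.8% of the tested genes.

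The label was checked against markers, in CPM (UMIs of a gene per 1e6 UMIs of the cells summed). The thymocyte markers, among them Rag1, Rag2, Dntt, Ptcra, Cd4, Cd8a and Cd8b1, were all detected, at 4669 CPM summed. All 8 T cell markers were detected, at 7177 CPM. The T cell list holds Cd3d, Cd3e and Cd3g, which the gate required, so its sum follows in part from the gate. Of 6 B cell markers 4 were detected, at 270 CPM summed, with Cd79a at 0. Of 5 NK cell markers 2 were detected, at 103 CPM summed, with Ncr1, Klrb1c and Klre1 at 0. Of 6 macrophage markers 4 were detected, at 57.0 CPM summed, with Csf1r and Adgre1 at 0. Smooth muscle markers summed to 1102 CPM, fibroblast markers to 205 CPM and endothelial markers to 78.8 CPM, but the gates capped genes of these 3 lists, so their sums describe the gates. Erythroid markers summed to 14014 CPM and epithelial markers to 422 CPM. The name thymocyte-like rests on this RNA. Whether the cells lay in the wall of the aorta was not tested.

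Of the 692 cells, 15 carried the hashtag of the animal of 81 weeks alone, 454 that of 84 weeks and 116 that of 88 weeks, 56 carried several hashtags and 51 none. They had a median of 6630.5 UMIs (range 1364 to 104654), 2415.5 genes and 9.75% mitochondrial UMIs. The 4 gate genes gave a median of 13 UMIs per cell (range 3 to 74) and CD3 a median of 8 (range 1 to 133). At the edge of the gate, 67 cells had exactly 3 mitotic UMIs and a median of 5777 UMIs in all, and 67 CD3-positive cells just outside had 2 mitotic UMIs and a median of 5013 UMIs in all. On the CD3 side, 28 cells rested on 1 CD3 UMI. Doublet scores marked 13 of the 692 cells. The hashtag count had a median of 1.86 times its cutoff in the 585 cells with 1 hashtag, against 2.97 times in 1004 endothelial-gated cells, and 29.1% of the 585 lay under 1.5 times. The median was lower still in the resting (1.60, with 43.2% under 1.5 times) and DNA-replicating (1.67) CD3-positive classes described below. The animal of origin is thus less certain for all of these CD3-positive classes than for endothelial-gated cells.

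Single barcodes carried much of the smallest sums. One barcode of 104654 UMIs made up 53% of the 197538 UMIs of mitotic cells at 81 weeks. It had 7 mitotic UMIs, 1 CD3 UMI, 3 UMIs of thymocyte markers, 275 of Lyz2 and 143 of epithelial markers. Among resting cells at 81 weeks, 1 barcode of 62594 UMIs made up 39.8% of the sum. That sum held 157336 UMIs in 13 cells, and 55180 UMIs in 11 cells without the 2 barcodes of over 30000 UMIs. In all 10 members had over 30000 UMIs. Of these, 4 held 277 to 677 epithelial UMIs beside 73 to 359 thymocyte UMIs, and 7 to 88 UMIs of Psmb11, a proteasome subunit of cortical thymic epithelium. Only 11 of the 692 members had 3 or more epithelial UMIs. Values at 81 weeks below include these barcodes unless stated. Leaving out barcodes of over 30000 UMIs, an alternative chosen after seeing the data, moved many of them. In mitotic cells at 81 weeks Mki67 was then at 1970 CPM in place of 926, Cenpf at 807 in place of 390, Cdkn2d at 323 in place of 152 and Trdc at 129 in place of 60.7.

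Mitotic RNA was common among the CD3-positive cells of each animal. The gates took 37.5% (15 of 40, exact binomial 95% interval 22.7 to 54.2) of them at 81 weeks, 31.7% (454 of 1430, 29.3 to 34.2) at 84 weeks and 30.2% (116 of 384, 25.7 to 35.1) at 88 weeks. The 3 intervals overlap, and with 1 animal per age there is no test of age. Over all hashtag states the share was 30.8% (28.9 to 32.8), with 33.5% (26.4 to 41.2) among cells with several hashtags and 22.7% (17.4 to 28.7) among those with none. These intervals cover counting error only. The share moved with depth and with mitochondrial UMIs: among CD3-positive cells with at least 3000 UMIs it was 41.7% (39.3 to 44.1), and among those under 10% mitochondrial UMIs 51.6% (47.8 to 55.3). Of the 847 cells with at least 3 mitotic UMIs anywhere in the data, 692 (81.7%, 78.9 to 84.2) passed the other gates, 115 had CD3 but were excluded and 40 had no CD3 UMI.

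The cells were set against 2 other classes of CD3-positive cells with none of the 4 mitotic genes. DNA-replicating cells (104) had at least 3 UMIs of Mcm3, Mcm5, Mcm6 and Gins2, parts of the replicative helicase. Resting cells (841) had no UMI of these nor of Mki67 and Top2a. The other 609 CD3-positive cells met neither rule. Median depths were 6630.5 UMIs in mitotic, 6023 in DNA-replicating and 2987 in resting cells, and resting cells are in part those too shallow to show cycle RNA. Haemoglobin and other erythroid markers summed to 14014 CPM in mitotic, 7222 CPM in DNA-replicating and 52724 CPM in resting cells, and smooth muscle markers to 1102, 1447 and 2020 CPM. Epithelial markers summed to 422, 29.6 and 348 CPM, and macrophage markers to 57.0, 18.3 and 335 CPM. The part of depth and of these markers in the differences below was not tested.

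Levels of genes outside the gate rose step by step with the number of gate UMIs per cell. Across CD3-positive cells with 0, 1, 2, 3 to 5, 6 to 12, 13 to 20 and 21 or more mitotic UMIs, Aspm had 3.40, 28.9, 62.9, 107, 265, 386 and 429 CPM. Cenpf, a kinetochore protein, had 49.7 CPM at 0 UMIs, 438 CPM at 3 to 5 and 1381 CPM at 21 or more. Ccnb1 had 3.60, 57.2 and 254 CPM in the same 3 bins. Pcna took another course, with 203 CPM at 0, 804 CPM at 3 to 5 and 292 CPM at 21 or more. Its highest value thus lay at the edge of the gate. Ung, a uracil glycosylase made as DNA replicates, had 16.8 CPM at 0, 40.6 CPM at 1, 38.1 CPM at 3 to 5 and 5.78 CPM at 21 or more. Rag1 had 1660 CPM at 0 and 651 to 812 CPM in the 4 bins inside the gate. Genes of mitosis vary with those of the gate and depth rises along the bins, from a median of 3156 to one of 8218 UMIs, so these courses are descriptions.

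**Figure D1:**
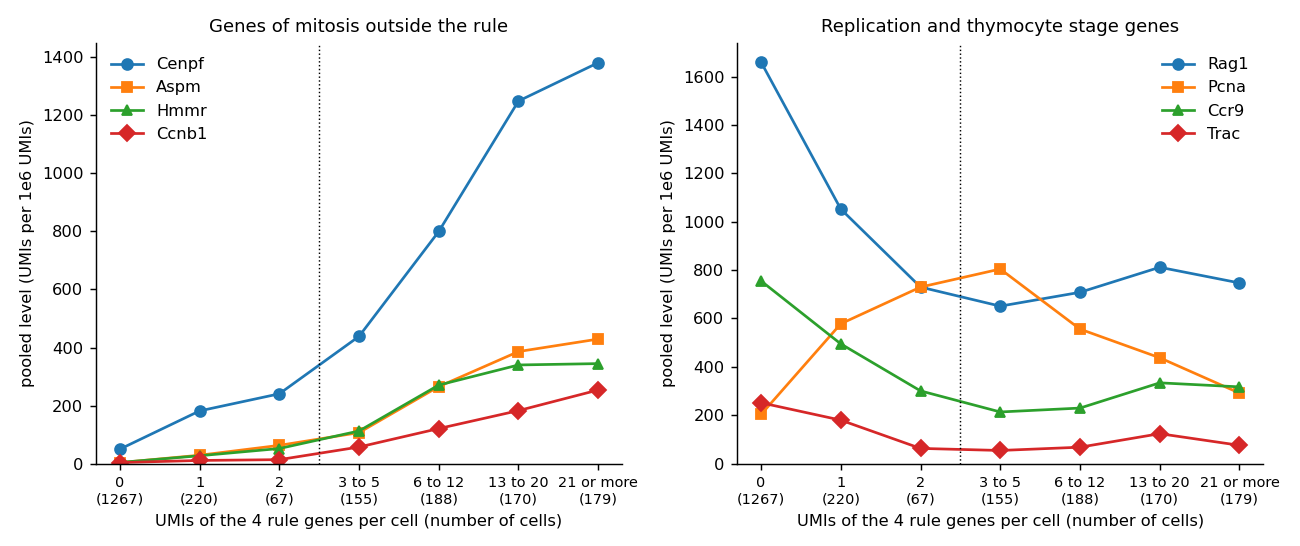
Pooled levels (UMIs per 1e6 UMIs) of 8 genes in CD3-positive cells binned by UMIs of Ccnb2, Ube2c, Cdc20 and Cenpa; the number of cells stands under each bin and the dotted line marks the gate at 3 UMIs. Cenpf, Aspm, Hmmr and Ccnb1 climb through every bin, with Cenpf at 1381 CPM in the last, Pcna peaks at 804 CPM at 3 to 5 UMIs, and Rag1 stays at or under 812 CPM inside the gate.

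Within the gate, cells also differed in how much replication RNA they held. At least 3 UMIs of Mcm3, Mcm5, Mcm6 and Gins2 were present in 278 cells (40.2%), 1 or 2 in 202 (29.2%) and 0 in 212 (30.6%). Cells with at least 3 had a median of 9002 UMIs, and cells with 0 one of 4722.5, so depth separates them too. Aspm was at 202 CPM in cells with at least 3 replication UMIs, against 544 CPM in those with 0, and Cenpf at 662 against 1738 CPM. Pcna ran the other way, at 635 against 161 CPM. Rag1 was at 471 against 1183 CPM and Ccr9, a chemokine receptor of thymocytes, at 158 against 536 CPM. These are pooled values over cells of all hashtag states, with no test.

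For tests, UMIs were summed per animal and class, leaving out doublet calls and cells without exactly 1 hashtag. The sums held 15, 444 and 116 mitotic cells, 74 and 16 DNA-replicating cells (84 and 88 weeks) and 13, 519 and 145 resting cells. At 81 weeks only 2 cells were DNA-replicating, so that sum was not used. The comparison with DNA-replicating cells therefore has 2 animals with both classes. A call needed an adjusted p under 0.05 (edgeR quasi-likelihood F test, animal as block, Benjamini-Hochberg over all genes tested) and a log2 fold change of at least 1 either way.

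Against DNA-replicating cells, mitotic cells held more RNA of many genes of the spindle, the kinetochore and the mitotic kinases, less of some replication genes, and more of Rag2, Cd8a and Cd8b1. The test covered 7331 genes and called 150 (2.05%), with 114 (1.56%) higher in mitotic cells and 36 (0.491%) lower. The median log2 fold change of all was 0.04. The groups did not overlap for 2283 of the 7331 genes (31.1%), so a lack of overlap is common here. Without the animal block no gene was called, while 546 had an unadjusted p under 0.05, against 939 with the block. Without the animal of 84 weeks the counts were 25 higher and 9 lower. DESeq2 called 75 and 23. Without barcodes of over 30000 UMIs they were 208 and 109, with 114 of the 114 and 35 of the 36 genes among them. Both classes were chosen by mitotic and replication RNA, so counts and folds of those gene lists describe the gates and are given without p-values.

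Of 22 tested genes of mitotic cyclins, kinases and their regulators, 14 were called higher and 0 lower, with a median log2 fold change of 1.77. Ccnb1 had 65.8, 180 and 180 CPM in mitotic cells at 81, 84 and 88 weeks, against 11.5 and 9.26 CPM in DNA-replicating cells at 84 and 88 weeks. Every mitotic sum lay above both DNA-replicating ones, with a log2 fold change of 4.07 ± 0.42 (SE), and the 81-week value was 108 CPM without its deepest barcode. Cdc25b, a phosphatase that activates Cdk1, had 0, 91.5 and 101 CPM in mitotic cells, against 5.74 and 18.5 CPM in DNA-replicating cells (3.5 ± 0.47). It stayed at 0 at 81 weeks without the deep barcode, so the groups overlap there. Cdk1 (1.93 ± 0.32), Ccna2, or cyclin A2 (1.64 ± 0.24), and the mitotic kinase genes Plk1 (2.99 ± 0.42) and Aurka (2.77 ± 0.43) were among the 14.

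The list of spindle, motor and cytokinesis genes had 26 of 35 higher and 0 lower, with the highest median of the 12 lists, 2.29. Hmmr, a spindle-associated protein, had 152, 298 and 287 CPM in mitotic cells, against 9.57 and 9.26 CPM in DNA-replicating cells (log2 fold change 4.93 ± 0.42). The 81-week value became 323 CPM without the deep barcode, level with the other animals. Aspm had 137, 351 and 321 CPM in mitotic cells, against 15.3 and 18.5 CPM in DNA-replicating cells (4.46 ± 0.37), and 280 CPM at 81 weeks without that barcode. The groups overlapped for neither gene. Pimreg, a mitotic regulator, had 234 UMIs in mitotic and 0 in DNA-replicating cells, which puts its level at least 10.7-fold higher when the 0 is taken as 3 UMIs for both sums together. It is named here for that 0 and not by the rule for named genes.

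Kinetochore, checkpoint and chromosome passenger genes had 15 of 27 higher and 0 lower (median 1.45). Cenpf had 390, 1079 and 1094 CPM in mitotic cells, against 142 and 64.8 CPM in DNA-replicating cells (3.39 ± 0.32). Cdca3, a mitotic entry factor, had 167, 273 and 298 CPM, against 44.0 and 46.3 CPM (2.63 ± 0.33). Both genes were higher in every mitotic sum. The subunits of the anaphase-promoting complex behaved otherwise: of 21 genes of the complex and of mitotic exit, 2 were higher and 0 lower, with a median of 0.40. These were Fzr1, the second activator of the complex, with 40.5, 65.1 and 58.6 CPM in mitotic against 15.3 and 0 CPM in DNA-replicating cells (2.39 ± 0.50), and Ube2s, which extends ubiquitin chains (1.92 ± 0.23). Ube2s was the more abundant, at 607, 899 and 1000 CPM in mitotic and 272 and 213 CPM in DNA-replicating cells.

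Among genes of chromosome condensation and proliferative chromatin 7 of 19 were higher and 0 lower (median 0.88). H2afx, the histone variant marked at DNA breaks, had 218, 438 and 479 CPM in mitotic cells, against 88.0 and 102 CPM in DNA-replicating cells (2.32 ± 0.26). Ncapg, a condensin subunit, had 65.8, 198 and 185 CPM, against 63.1 and 74.1 CPM (1.59 ± 0.25), and its 81-week value overlapped the DNA-replicating ones until the deep barcode was left out (140 CPM). Mki67 and Top2a, which are made through much of the cycle, differed less, by 1.10 ± 0.19 and 1.24 ± 0.19. Mki67 had 926, 2323 and 2383 CPM in mitotic cells, against 1012 and 1287 CPM in DNA-replicating cells. DESeq2 put Mki67 at 0.97 and did not call it or Top2a.

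Replication genes split. Of 37 tested, 8 were lower and 0 higher, with a median of -0.71. Ung had 0, 10.7 and 17.6 CPM in mitotic cells, against 91.8 and 120 CPM in DNA-replicating cells (-2.93 ± 0.40). E2f1, a transcription factor of replication genes, had 5.06, 21.6 and 15.2 CPM, against 86.1 and 83.3 CPM (-2.13 ± 0.45). Pcna had 410, 475 and 493 CPM, against 959 and 1194 CPM (-1.04 ± 0.21). Without the deep barcode Pcna at 81 weeks was 840 CPM and its fold change fell just short of the minimum for a call. The thymidylate synthase gene Tyms, in contrast, had 182, 148 and 211 CPM in mitotic cells, against 203 and 194 CPM in DNA-replicating cells, and was not called (-0.17 ± 0.27).

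Of 28 clustered histone genes, 6 were called higher in mitotic cells, 0 were lower and 22 were not called (median 0.98). Thinned to 1000 UMIs per cell, the list averaged 19.2 UMIs per cell in mitotic, 9.55 in DNA-replicating and 1.67 in resting cells, whereas the replication list averaged 5.24, 10.4 and 0.536. Hist1h2ab had 370, 389 and 563 CPM in mitotic cells, against 143 and 157 CPM in DNA-replicating cells (1.71 ± 0.30), and Hist2h2bb was higher by 1.48 ± 0.33. Histone genes are near-identical copies, so their reads may be split among them and single-gene values are uncertain.

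**Figure D2:**
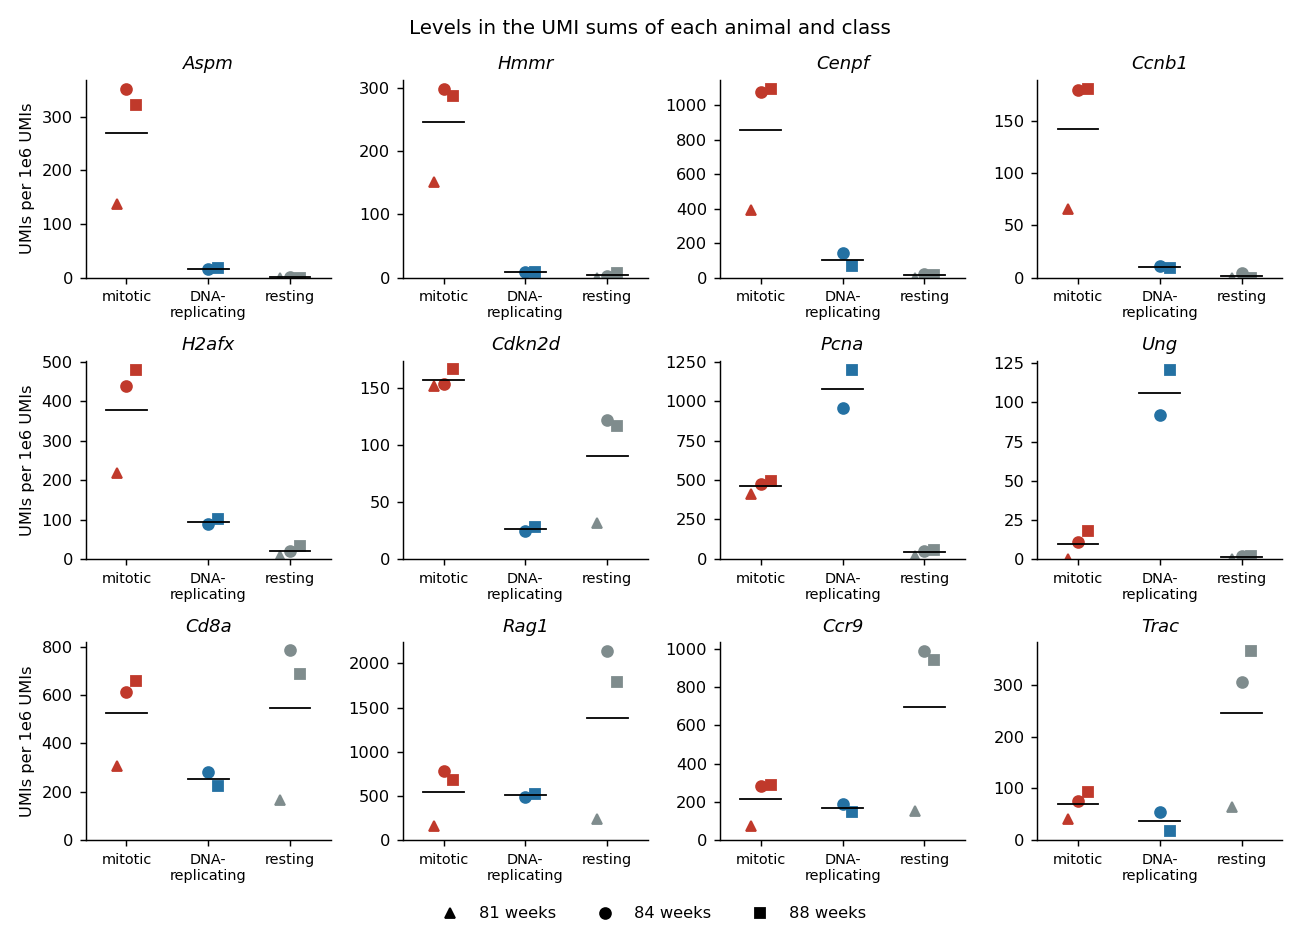
Levels (UMIs per 1e6 UMIs) of 12 genes in the sums of each animal (triangle 81, circle 84, square 88 weeks) for mitotic, DNA-replicating and resting cells; bars mark the mean, and DNA-replicating cells have no sum at 81 weeks. Aspm, Hmmr and Ccnb1 separate the mitotic sums from all others, Pcna is highest in DNA-replicating cells at 959 and 1194 CPM, and Rag1, Ccr9 and Trac are highest in resting cells at 84 and 88 weeks.

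Only 3 genes were higher in mitotic cells, of 34 tested in the list of V(D)J recombination and thymocyte stage, and 0 were lower (median 0.34). Over all genes tested 1.56% were higher and 0.491% lower. Rag2 had 50.6, 121 and 110 CPM in mitotic cells, against 47.8 and 37.0 CPM in DNA-replicating cells (log2 fold change 1.49 ± 0.30, edgeR adjusted p = 0.018, higher in 2 of 2 animals). Cd8a, one chain of the Cd8 coreceptor, had 309, 614 and 658 CPM, against 283 and 222 CPM (1.46 ± 0.24, edgeR adjusted p = 0.0051). The groups did not overlap for either gene, nor for 31.1% of all genes tested. Cd8b1, the other chain, was higher by 1.10 ± 0.24 (edgeR adjusted p = 0.032) with an overlap at 81 weeks, where it had 344 CPM in mitotic cells, and the call was lost at 0.94 without that animal. Rag2, Cd8a and Cd8b1 lost their calls without the animal of 84 weeks (1.72, 1.75 and 1.29) and without that of 88 weeks (1.5, 1.34 and 1.08), with the direction kept, and Rag2 and Cd8b1 also among cells of at least 3000 UMIs and with hashtag counts of at least 2 times the cutoff. Rag1 had 162, 789 and 686 CPM in mitotic cells, against 494 and 528 CPM in DNA-replicating cells, and was not called (0.65 ± 0.19, edgeR adjusted p = 0.13). Cd4 (1.15 ± 0.33, edgeR adjusted p = 0.11) was not called, but among other alternatives reached a call at 1.16 without barcodes of over 30000 UMIs. Ptcra, the pre-TCR alpha chain made before the alpha chain is rearranged, was not called at 20.2, 42.1 and 41.0 CPM in mitotic cells, against 76.5 and 37.0 CPM in DNA-replicating cells. Myb was not called either (-0.10 ± 0.30).

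Of 21 genes of positive selection, maturation and trafficking, 0 were higher and 3 lower (median -0.56). Over all genes tested 0.491% were lower. Il7r, the receptor of the survival cytokine interleukin-7, had 0, 14.6 and 2.34 CPM in mitotic cells, against 72.7 and 46.3 CPM in DNA-replicating cells (-2.54 ± 0.52, edgeR adjusted p = 0.023, lower in 2 of 2 animals). Bcl2, which protects from cell death, had 15.2, 37.0 and 48.0 CPM, against 157 and 83.3 CPM (-1.64 ± 0.30, edgeR adjusted p = 0.0094). Neither gene overlapped between the groups, nor did 31.1% of all genes tested. Without the animal of 84 weeks Il7r was at -4.04 and Bcl2 at -0.70, neither called, and DESeq2 did not call Bcl2 either. Ccr9 was not called (0.81 ± 0.23, edgeR adjusted p = 0.10). Of 22 T cell receptor constants and signalling genes 0 were called (median 0.30), beside 2.05% of all genes tested. Among the 22 were the receptor constants Trac (0.94 ± 0.38) and Trbc2 (1.06 ± 0.26). Trbc2, a near-identical copy of Trbc1, reached a call at 1.07 without the deep barcodes. Of 23 Myc and growth genes 0 were called (median -0.37), beside the same 2.05%. The growth regulator Myc itself had 15.2, 46.6 and 34.0 CPM in mitotic and 67.0 and 74.1 CPM in DNA-replicating cells.

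Inhibitors of cyclin-dependent kinases differed. Of 21 genes of Cdk inhibitors, p53 targets and apoptosis, 3 were higher and 1 lower (median 0.49). Over all genes tested 1.56% were higher and 0.491% lower. Cdkn2d, which encodes the Cdk4 and Cdk6 inhibitor p19, had 152, 153 and 166 CPM in mitotic cells, against 24.9 and 27.8 CPM in DNA-replicating cells (2.76 ± 0.37, edgeR adjusted p = 0.0013). The groups were far apart, and the call held when any 1 animal was left out (2.64 to 2.87). In resting cells Cdkn2d had 31.8, 122 and 116 CPM at 81, 84 and 88 weeks, and it was not called against them. Cdkn1b, which encodes p27, had 96.2, 216 and 227 CPM, against 109 and 46.3 CPM (1.42 ± 0.33, edgeR adjusted p = 0.041), and was not called without the animal of 88 weeks (1.15), among cells of at least 3000 UMIs (1.45) or with hashtag counts of at least 2 times the cutoff (1.55). The cyclin D2 gene Ccnd2 was lower (-1.78 ± 0.36, edgeR adjusted p = 0.019) with overlapping groups, and not called without the animal of 84 weeks (-0.64), nor by DESeq2 (-1.69). Without barcodes of over 30000 UMIs it was at -2.40. Resting cells had 44.5, 232 and 268 CPM of Cdkn1b, which was not called against them either. Cdkn1a, the p21 gene, stood at 35.4, 8.70 and 3.51 CPM in mitotic cells, against 5.74 and 9.26 CPM in DNA-replicating cells (0.51 ± 1.06, not called). Its value at 81 weeks came from the barcode of 104654 UMIs and was 0 without it.

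**Figure D3:**
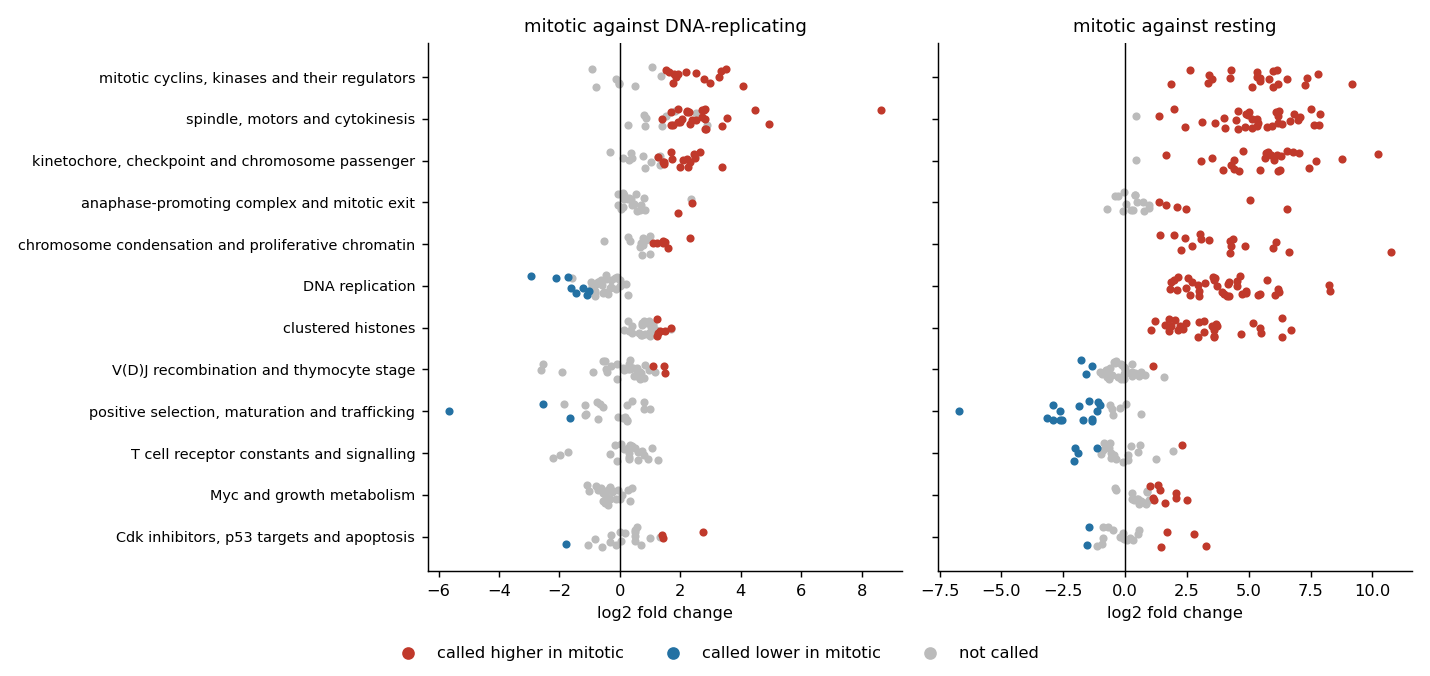
Log2 fold changes of each tested gene in the 12 lists, mitotic against DNA-replicating cells (left) and mitotic against resting cells (right), with calls in red (higher in mitotic) and blue (lower) and the other genes in grey. The 3 lists of mitosis have medians of 1.77, 2.29 and 1.45 on the left. Replication genes have a median of -0.71 on the left, with 29 of 37 not called, and of 4.01 on the right, and the list of selection and maturation has a median of -1.33 against resting cells.

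Against resting cells, mitotic cells held more RNA of nearly all tested genes of mitosis and DNA replication, apart from the anaphase-promoting complex, and less of Rag1, Ccr9, Trac and genes that mark selection. The test covered 7329 genes and called 1344 (18.3%), with 807 (11%) higher in mitotic cells and 537 (7.33%) lower, and a median log2 fold change of -0.02. The groups did not overlap for 1827 of the genes (24.9%). Without the animal block the counts were 560 and 140, without the animal of 84 weeks 364 and 290, and without that of 88 weeks 572 and 286. The cycle lists again describe the gates: 22 of 22 genes of mitotic cyclins and kinases, 34 of 35 of the spindle, 26 of 27 of the kinetochore, 17 of 17 of condensation, 37 of 37 of replication and 28 of 28 clustered histones were higher and 0 lower. Of the anaphase-promoting complex and mitotic exit, 6 of 21 were higher, 0 lower and 15 not called, with a median of 0.48. Fbxo5, an inhibitor of the complex, had 106, 174 and 246 CPM in mitotic cells, against 6.36, 5.83 and 4.00 CPM in resting cells.

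Some cycle genes were absent or nearly so from the resting sums. Nek2, a centrosome kinase, Spc25, a kinetochore subunit, and Esco2, which acetylates cohesin, had 354, 730 and 1055 UMIs in mitotic cells and 0 in resting cells. With the 0 taken as 3 UMIs for all resting sums together, they were at least 60.6-fold, 125-fold and 181-fold higher. Aspm had 1552 UMIs in mitotic and 3 in resting cells, a ratio of CPM of 266 (counting interval 90.8 to 1291). Ccna2 had 1047 and 3 UMIs, a ratio of 179 (61.2 to 871). Replication genes were higher too: Pcna had 410, 475 and 493 CPM in mitotic cells, against 19.1, 53.05 and 54.0 CPM in resting cells (3.24 ± 0.21), and Tyms was higher by 4.74 ± 0.33. The histone gene Hist1h3c had 511, 801 and 850 CPM, against 6.36, 8.74 and 10.0 CPM (6.36 ± 0.25).

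Of 34 genes of recombination and thymocyte stage 1 was higher and 3 were lower (median -0.16), a share below the 18.3% called over all genes tested. Rag1 had 162, 789 and 686 CPM in mitotic cells, against 242, 2138 and 1783 CPM in resting cells (-1.34 ± 0.17, edgeR adjusted p = 5.4e-05, lower in 3 of 3 animals). Its levels overlapped between the groups through the low sums at 81 weeks, which were 345 CPM in mitotic and 689 CPM in resting cells without barcodes of over 30000 UMIs. Among cells of at least 3000 UMIs it was at -0.61 and not called, and at -0.72 without members holding replication RNA. Without the animal block it was at -1.40 and not called. Rag2 had 50.6, 121 and 110 CPM in mitotic cells, against 19.1, 146 and 120 CPM in resting cells (-0.16 ± 0.21, edgeR adjusted p = 0.62). Cd8a (-0.06 ± 0.19), Cd8b1 (-0.43 ± 0.20) and Ptcra (0.81 ± 0.30) were not called. Cd4 had 81.0, 227 and 234 CPM, against 44.5, 550 and 454 CPM (-0.93 ± 0.26, edgeR adjusted p = 0.018), short of the fold minimum, and passed it at -1.09 without the deep barcodes. Notch1, a receptor that drives the T cell fate, was higher (1.12 ± 0.21, edgeR adjusted p = 0.0016) and Cd1d1, which presents lipids to NKT cells, was lower (-1.57 ± 0.30, edgeR adjusted p = 0.0019), though not called without the animal of 84 weeks (-1.94). Notch1 was not called without the animal block, nor without the animal of 84 or of 88 weeks (1.05 and 1.19). Hes1, a target of Notch, was lower (-1.80 ± 0.44, edgeR adjusted p = 0.0091), with 50.6, 4.21 and 8.20 CPM in mitotic and 254, 11.7 and 10.0 CPM in resting cells, but stood at 0.90, not called, with a narrower resting class, which has no sum at 81 weeks. It was also not called with hashtag counts of at least 2 times the cutoff (-1.28) or at least 2 CD3 UMIs (-1.24). Without barcodes of over 30000 UMIs its value at 81 weeks was 0 CPM in mitotic and 90.6 CPM in resting cells. Myb was not called (-0.59 ± 0.26).

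Genes of positive selection, maturation and trafficking were mainly lower, 15 of 21, and 0 were higher (median -1.33). Over all genes tested 7.33% were lower and 11% higher. Egr1, induced when the receptor signals, had 5.06, 8.98 and 8.20 CPM in mitotic cells, against 121, 63.0 and 70.1 CPM in resting cells (-3.15 ± 0.38, edgeR adjusted p = 3.9e-05). Cd5, which rises with the strength of that signal, had 10.1, 28.9 and 32.8 CPM, against 69.9, 164 and 202 CPM (-2.64 ± 0.27, edgeR adjusted p = 9.1e-06). The groups did not overlap for these 2 genes, nor for 24.9% of all genes tested. Thinned to 1000 UMIs per cell, Egr1 was found in 4.76% of resting cells, 10.4% of endothelial-gated and 3.98% of smooth muscle-gated cells. The resting shares of Nr4a1, Klf2 and Ly6a, also called lower, lay under their endothelial-gated shares too. Those of the other called genes, Cd5 (12.6%) among them, lay above both gated shares. The parts of RNA from such gated cells and of the tissue digestion in the lower calls were not tested. Ccr9 had 75.9, 285 and 288 CPM, against 152, 987 and 943 CPM (-1.72 ± 0.19, edgeR adjusted p = 1.7e-05, lower in 3 of 3 animals), and was at -1.73 and not called without the animal block.

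The receptor chains moved in opposite directions. Trac, the constant part of the alpha chain, had 40.5, 76.3 and 93.7 CPM in mitotic cells, against 63.6, 306 and 364 CPM in resting cells (-1.90 ± 0.27, edgeR adjusted p = 1.9e-04). Trdc, the constant part of the delta chain, which lies inside the alpha locus, had 60.7, 259 and 251 CPM, against 6.36, 45.5 and 60.0 CPM (2.30 ± 0.25, edgeR adjusted p = 1.9e-05). Trdc was higher in 3 of 3 animals and did not overlap, and Trac was lower in 3 of 3 with an overlap at 81 weeks. Both calls held when any 1 animal was left out, at 1.95 to 2.49 and -2.03 to -1.80. Trbc2, the beta constant, had 1023, 2400 and 2622 CPM, against 369, 2975 and 2828 CPM, and was not called (0.13 ± 0.22). Of 22 receptor and signalling genes 1 was higher and 4 lower (median -0.51), beside 18.3% called over all genes tested. The 4 lower genes included Txk, a kinase of receptor signalling (-2.07 ± 0.21, edgeR adjusted p = 9.8e-06), and the adhesion gene Cd2 (-2.03 ± 0.26, edgeR adjusted p = 7.4e-05), both with overlapping groups and both lower in 3 of 3 animals.

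Of 23 Myc and growth genes 9 were higher and 0 lower (median 0.88), beside 11% higher and 7.33% lower over all genes tested. Myc had 15.2, 46.6 and 34.0 CPM in mitotic cells, against 12.7, 7.00 and 12.01 CPM in resting cells (2.06 ± 0.41, edgeR adjusted p = 0.0022). It was at 0.53 and not called without members holding replication RNA, and at 0.84 and not called without the animal of 84 weeks, nor called with hashtag counts of at least 2 times the cutoff (1.86). Ran, a GTPase of nuclear transport and spindle assembly, was higher by 2.07 ± 0.18 (edgeR adjusted p = 2.1e-06) and Tfrc, the transferrin receptor, by 1.63 ± 0.23 (edgeR adjusted p = 1.5e-04). Tfrc was not called without the animal of 84 weeks (1.61). Of 21 genes of Cdk inhibitors, p53 targets and apoptosis 4 were higher and 2 lower (median -0.07), beside 18.3% called over all genes tested. The retinoblastoma relative Rbl1 (3.26 ± 0.26, edgeR adjusted p = 7.6e-07) and the inhibitor Cdkn2c, or p18 (2.79 ± 0.27, edgeR adjusted p = 5.6e-06), were higher. The antiproliferative gene Btg1 (-1.52 ± 0.21, edgeR adjusted p = 1.3e-04) and Ccnd2 (-1.46 ± 0.29, edgeR adjusted p = 0.0020) were lower. Ccnd2 was at -0.36 and not called with a narrower resting class, and at -1.63 and not called without the animal block. Cdkn1a was not called (-0.89 ± 0.63).

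Shares of cells with at least 1 UMI were compared after thinning each cell to 1000 UMIs, which left out 0 cells, and are descriptions over pooled cells. Rag1 or Rag2 was found in 54.6% of mitotic cells (exact binomial 95% interval 50.8 to 58.4), 28.8% of DNA-replicating cells (20.4 to 38.6) and 69.7% of resting cells (66.4 to 72.8). Without thinning the shares were 91.2%, 76.9% and 82.3%. Cd4 and Cd8 together were found in 21% of mitotic (18.0 to 24.2), 8.65% of DNA-replicating (4.03 to 15.8) and 36.1% of resting cells (32.9 to 39.5). Cd8 without Cd4 was found in 49.1%, 37.5% and 41.9%, and neither in 26.2%, 51.0% and 18.0%. At 1000 UMIs the mitotic share thus lay between the other classes for Rag and for Cd4 with Cd8, and above both for Cd8 without Cd4. The order moved with depth: unthinned, the Rag share was highest in mitotic cells, and Cd4 and Cd8 together were found in 67.3%, 43.3% and 67.1%.

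Trac was found in 9.39% of mitotic (7.32 to 11.8), 2.88% of DNA-replicating (0.599 to 8.20) and 25% of resting cells (22.1 to 28.0) at 1000 UMIs. Ptcra was found in 4.34% (2.94 to 6.13), 9.62% (4.71 to 17.0) and 2.26% (1.37 to 3.51). At that depth 2 of the 692 mitotic cells showed both, and unthinned 60 (8.67%) did. Unthinned, Trac was in 36.7%, 20.2% and 49.3% and Ptcra in 23.1%, 32.7% and 7.13%. Cells gated as endothelial or smooth muscle give a background for such shares. The source of that background was not tested. At 1000 UMIs Rag1 had a UMI in 49.4% of mitotic cells, 9.18% of endothelial-gated and 0.885% of smooth muscle-gated cells. Trac had one in 2.08% of endothelial-gated and 0.442% of smooth muscle-gated cells. At that depth the Trac share of DNA-replicating cells, 2.88% (0.599 to 8.20), could not be told from the endothelial-gated share. At 3000 UMIs it was 8.08%, against 3.85% of endothelial-gated and 1.78% of smooth muscle-gated cells. Unthinned, it was 20.2%, against 6.94% and 5.31%. At 1000 UMIs Il7r, at 0.434% of mitotic cells, is close to the 0.154% of endothelial-gated cells.

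**Figure D4:**
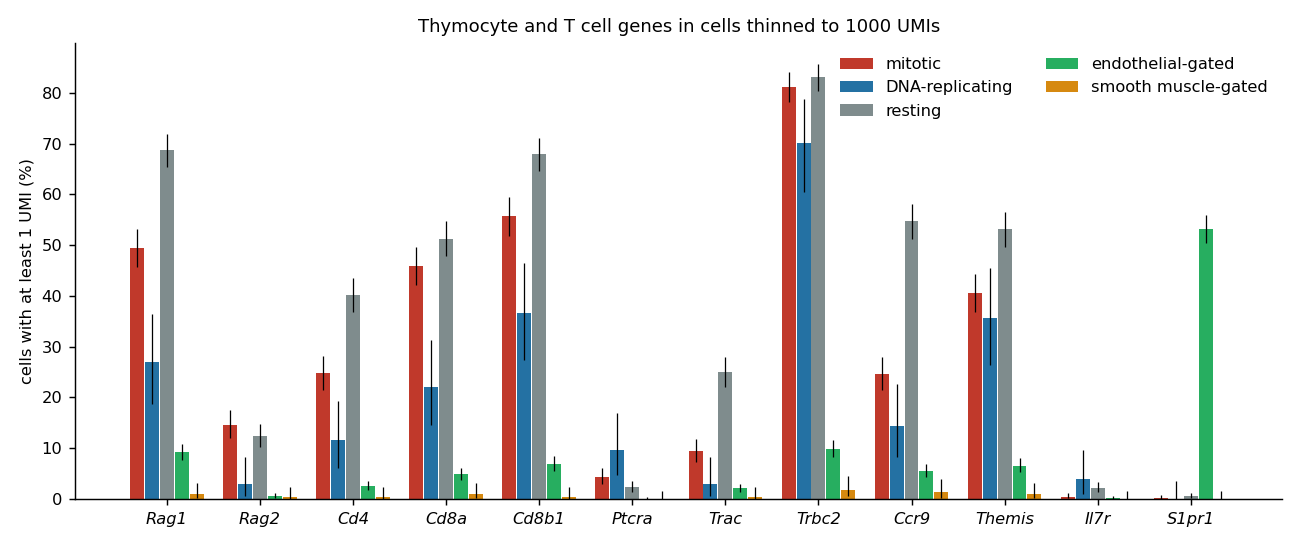
Share of cells (%) with at least 1 UMI of 12 genes of thymocytes and T cells after thinning to 1000 UMIs, for mitotic, DNA-replicating, resting, endothelial-gated and smooth muscle-gated cells; lines are exact binomial 95% intervals. Rag1 is found in 49.4% of mitotic cells, between the DNA-replicating and resting shares, and Trac in 9.39%, while S1pr1, a receptor for leaving the thymus that endothelial cells also make, is found in 0.145% of mitotic cells.

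Between animals, the intervals of most of these shares overlapped in mitotic cells, which does not show that the shares are equal. At 1000 UMIs Mki67 had a UMI in 66.7% (38.4 to 88.2), 82.4% (78.6 to 85.8) and 83.6% (75.6 to 89.8) of the mitotic cells at 81, 84 and 88 weeks. Aspm was found in 40.0% (16.3 to 67.7), 31.1% (26.8 to 35.5) and 20.7% (13.7 to 29.2). Rag1 was found in 20% (4.33 to 48.1), 54.0% (49.3 to 58.6) and 42.2% (33.1 to 51.8). The Rag1 interval of the 15 cells at 81 weeks lies below that at 84 weeks and overlaps that at 88 weeks. With 1 animal per age, age and animal cannot be told apart.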

How the data were processed

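The authors deposited 1 matrix of raw UMI counts without normalisation, covering 32285 genes, 3 hashtags and 26916 barcodes (142108011 gene UMIs), made with Cell Ranger 6.0.1 per the file headers. The submitters' processing notes name Seurat 4.0.5 and mm10. All barcodes carry 1 suffix, so libraries cannot be told apart by depth, and no barcode is shared. Cell types were not taken from the authors. Some marker genes are not reported here. The members, classes and the 12 gene lists were chosen with earlier results of these data known. Hashtags were called with HTODemux of Seurat 5.3.0 (quantile 0.99), with cutoffs of 129, 765 and 266 UMIs. The Scrublet method in scanpy 1.11.5 marked 1 cell at its own threshold. A threshold of 0.25, set after seeing the scores, marked 482 of 11301 cells (4.27%), which were left out of sums only. Sums of UMI counts over the cells of 1 class in 1 animal, with at least 5 cells, were tested with edgeR 4.0.16 (TMM, its filter on low counts, animal as block, 1 fit over the 3 classes), with genes of the class rules left out of the tests. DESeq2 1.42.0 was an alternative. SE is the fold change divided by the root of F. The block rests on the hashtags, which tie the classes of 1 animal. Named genes were, per list and comparison, in each direction, the 2 called genes that changed most, of those with at least 50 CPM in the higher class and the same sign in every animal, and a set always named. The procedure was tested on simulated data. P-values measure the spread left between the sums of the 3 classes after the animal block, from 3 animals in 1 pool. DNA-replicating cells gave 2 of these sums, at 84 and 88 weeks.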

Additional observations from a re-analysis of the deposited data

How the results depend on the processing

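The counts of called genes moved more than the directions of named genes. Of 1447 recomputed values of named genes, 1294 kept direction and call, 115 lost the call, 20 gained one and 18 changed sign. Against DNA-replicating cells the 114 higher and 36 lower genes became 40 and 2 with hashtag counts of at least 2 times the cutoff (511 with an unadjusted p under 0.05), 232 and 128 with a narrower resting and wider DNA-replicating class, 297 and 59 with no filter on low counts, 75 and 23 with DESeq2, 208 and 109 without barcodes of over 30000 UMIs, and 255 and 177 without members holding replication RNA. Without the replicate block they were 0 and 0 by edgeR. At least 2 CD3 UMIs gave 60 lower genes and at least 5 mitotic UMIs 62. Leaving out 1 animal gave 25 to 143 higher and 9 to 62 lower. Against resting cells the 807 and 537 became 456 and 239 with the stricter hashtags, and 140 were lower without the replicate block. Leaving out 1 animal gave 364 to 889 higher and 286 to 603 lower (290 without 84 weeks). A fit that leaves out 84 or 88 weeks has 1 DNA-replicating sum, which is then assumed to vary like the other classes. Signs turned for a few named genes, of which Hes1 had been called, at -1.80 against resting cells. Against DNA-replicating cells Myb was at 0.015 with the stricter hashtags, 0.10 with no filter and 0.60 without 84 weeks, and Tyms at 0.046 with no filter, 0.0088 without the replicate block and 0.19 without 84 weeks. Against resting cells Cd8a was at 0.44, Cd8b1 at 0.040 and Rag2 at 0.10 with at least 3000 UMIs, and at 0.53, 0.20 and 0.35 without members holding replication RNA. Cd8a was at 0.059 with no filter and 0.052 without 84 weeks. Trbc2 was at -0.40 with the narrower resting class, -0.063 without the replicate block and -0.25 without 81 weeks. Hes1 was at 0.90 with the narrower resting class, which has no sum at 81 weeks. The share of CD3-positive cells that pass the gate was 27% at 84 and 25.3% at 88 weeks with at least 5 mitotic UMIs, 43.2% and 41.5% with at least 3000 UMIs, 52.3% and 55.8% under 10% mitochondrial UMIs, and 43.1% at 84 weeks with the stricter hashtags. Shares of mitotic cells with a UMI rose with depth, at 3000 UMIs and unthinned, to 76.4% and 88.9% for Rag1, 96.6% and 98.4% for Mki67, 56.3% and 74.1% for Aspm, 80.6% and 90.5% for Cd8b1, 10.6% and 23.1% for Ptcra, and 21.4% and 36.7% for Trac. The causes of these moves were not tested. Precision is limited by the 15 mitotic cells at 81 weeks, by 16 DNA-replicating cells at 88 weeks and by hashtag counts near the cutoff.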

Other observations

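Mitotic RNA outside the CD3 gate came with more erythroid RNA than in the members. The 40 cells with at least 3 UMIs of Ccnb2, Ube2c, Cdc20 and Cenpa but no CD3 UMI had 82352 CPM of erythroid markers, against 14014 CPM in the 692 members. Of the 40, 39 had at least 3 erythroid UMIs, and 39 had at least 3 smooth muscle UMIs. Erythroid RNA was not particular to them, since resting CD3-positive cells had 52724 CPM. The 40 cells were also deeper, with a median of 9791.5 UMIs, against 6630.5 in the members. Erythroid genes were in no gate. The members had to hold CD3 and little smooth muscle RNA and the 40 cells did not, so their smooth muscle markers (14140 CPM, against 1102 CPM) and thymocyte markers (532 CPM, against 4669 CPM) follow in part from the gates.

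Haemoglobin genes made up at least 1% of UMIs in 43 members (6.21%) and at least 10% in 26 (3.76%). Of the 43 cells, 81.4% had a UMI of Alas2, a haem synthesis gene of red cell precursors, against 2.31% of the other 649. Rag1 had a UMI in 79.1% of the 43 and 89.5% of the 649. Doublet scores marked 8 of the 43 and 5 of the 649.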
